A study of Mus musculus with 5 samples.

Results

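The genes described here serve the uptake, carriage, activation, storage and release of fatty acids in a mouse macrophage line. They are 10 of the 21990 genes of the deposited table, taken by symbol: the fatty acid binding proteins Fabp3, Fabp4 and Fabp5, the surface receptors Cd36 and Msr1, the lipase Lpl, the acyl-CoA synthetase Acsl1, the droplet proteins Plin2 and Plin3, and the lipase Pnpla2. The group was chosen by the FPKM values of Fabp5, which are lower in CD137 cells than in the control, and the others were added for comparison with results of the same contrast known, so the values of these 10 genes are given as a description and without a test. The symbols matched 11 lines of the table, because Plin2 is the symbol of both gene ID 11520 and gene ID 101055843. The second has no value in any library and overlaps the first on chromosome 4, so 10 lines carried values.

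Fatty acids reach a macrophage as lipoproteins taken up by receptors, or as free acids released at the surface by lipases and taken up with the help of membrane proteins. Inside the cell, binding proteins carry them through the cytosol, acyl-CoA synthetases activate them with coenzyme A, and the activated acids are oxidised, built into membranes or stored as triglyceride and cholesteryl ester in droplets coated by perilipins. Triglyceride lipases release them again, and macrophages that hold many such droplets are known as foam cells.

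The RNA came from RAW264.7, an established murine line labelled as monocyte/macrophage. All cells carried Renilla luciferase, and the CD137 cells carried mouse Cd137 in addition; no source used here gives the promoter or says whether the cells were a clone or a pool. The series holds 2 control and 3 CD137 samples, of which control replicate 2 and CD137 replicates 2 and 3 have values here; replicate 1 of either group was not analysed here. Levels are FPKM, which scale the fragments of a gene to its transcript length and to the library's mapped fragments, so levels of different genes can be compared per length.

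Tnfrsf9, the gene of CD137, checked the labels, at 5.06 FPKM in the control and 364 and 370 FPKM in the CD137 libraries. The depths of CD137 replicates 2 and 3 were 0.983 and 0.988 of that of the control. Of 8 macrophage markers 7 were expressed and Mertk was at or near 0; 4 were higher and 3 lower at an adjusted p of 0.05 in a limma fit that called 24.4 percent of all expressed genes higher and 18.2 percent lower. The summed level of the markers was 2808 FPKM in the control and 1691 and 1734 FPKM in the CD137 libraries, mostly through Lyz2 (1693, 646 and 669 FPKM). Whether this has a part in the values below was not tested. Adipocyte markers, which matter here because adipocytes use many of the same genes, summed to 0.05, 0.16 and 0 FPKM in the control and CD137 replicates 2 and 3, and Lep, Retn, Plin1 and Cidec had no value. The control is 1 library and carries no replicate error, CD137 values are means ± SD of 2 libraries, and nothing in the labels says that these came from separate cultures. In bulk RNA, fewer cells that express a gene and less of its RNA per cell cannot be told apart.

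Fabp5, the epidermal-type fatty acid binding protein and a cytosolic carrier common in macrophages, was the most abundant of the 10 genes in the control and the one gene of them lower in both CD137 libraries. Fabp5 (gene ID 16592, plus strand of chromosome 3 from 10012585 to 10016610 in mm10) had 173 FPKM in the control against 84.3 and 84.8 FPKM in replicates 2 and 3 of the CD137 cells. These lay close together and far below the control. Their mean of 84.5 ± 0.361 FPKM (SD, n = 2) was 0.490 of the control, a log2 ratio of -1.03. The distance of the mean from the control was 173 times the gap between the CD137 libraries. That gap is narrower than the counting intervals given below, so the multiple does not measure the spread between libraries. Fabp5 is also the gene that the group was chosen by. Whole reads could be solved for this gene and numbered 2922 in the control against 1403 and 1419 in the CD137 libraries. Scaled for depth, the ratio was 0.489 in CD137 replicate 2 (95% interval 0.458 to 0.521) and 0.492 in CD137 replicate 3 (0.461 to 0.524). These exact intervals, like all intervals below, cover counting error only. In GENCODE M21, 5 processed pseudogenes (Fabp5l2, Gm13998, Gm14328, Gm6100 and Gm6166) match the Fabp5 transcript over 336 to 409 of its 987 bases at 93.6 to 98.3 percent identity. None of these symbols has a line in the table, and reads from them could not be told apart from those of Fabp5 here.

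The other binding proteins were close to the detection limit. Fabp3, the heart-type protein, was at 0.82 FPKM in the control and at 1.01 and 1.37 FPKM in the CD137 libraries, from 9, 11 and 15 reads. The counting intervals of its ratios, 0.468 to 3.40 and 0.692 to 4.37, both include 1, and 1 processed pseudogene, Fabp3-ps1, matches 402 of its 823 bases at 99.3 percent identity. Fabp4, the adipocyte-type protein, a known target of the nuclear receptor PPARγ in adipocytes and macrophages, had 0.72 FPKM in the control against 0.09 and 0.82 FPKM in replicates 2 and 3 of the CD137 cells. Those values rest on 8, 1 and 9 reads, and the control lies between the CD137 libraries. The ratio of 0.127 in CD137 replicate 2 has a counting interval of 0.0029 to 0.949, and that of 1.14 in CD137 replicate 3 one of 0.390 to 3.39. Fabp5 made up 99.1 percent of the FPKM of all Fabp genes in the control and 98.6 and 97.4 percent in the CD137 libraries. Fabp12 had 0, 0.10 and 0.04 FPKM in the control and CD137 replicates 2 and 3, and Fabp1, Fabp2, Fabp6, Fabp7, Fabp9 and Pmp2 had no value.

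Lpl encodes lipoprotein lipase, a secreted enzyme that frees fatty acids from the triglyceride of lipoproteins. It was at 126 FPKM in the control and at 189 and 181 FPKM in CD137 replicates 2 and 3. The CD137 libraries were both above the control, with a mean of 185 ± 5.90 FPKM (SD, n = 2), 1.47-fold the control. Lpl and Fabp5 thus exchanged places as the most abundant of the 10 genes: the level of Fabp5 was 1.37 times that of Lpl in the control, and 0.446 and 0.469 times in the CD137 libraries. The reads of Lpl could not be solved uniquely.

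Of the receptors, Cd36 was low and higher in CD137 cells, while Msr1 was well expressed and close to the control. Cd36, a membrane glycoprotein that takes up long-chain fatty acids and oxidised lipoproteins, was at 0.58 FPKM in the control and at 1.31 and 1.19 FPKM in the CD137 libraries, from 28, 64 and 57 reads. Both CD137 libraries were higher, and the counting intervals of the ratios were 1.47 to 3.77 and 1.29 to 3.36. Both intervals rest on the same 28 control reads, and Cd36 reached 1 FPKM only through the CD137 libraries. Its mean of 1.25 ± 0.0849 FPKM (SD, n = 2) was 2.16-fold the control (0.51 as a log2 difference on the FPKM + 1 scale, against 1.11 without the added 1), the largest ratio among the 10 genes, at a level that only 3.72 and 2.85 percent of expressed genes fell under in CD137 replicates 2 and 3. Msr1, the class A scavenger receptor for modified lipoproteins, had 25.3 FPKM in the control against 26.1 and 27.0 FPKM in the CD137 libraries, a mean ratio of 1.05. Its reads, 1114 in the control and 1049 and 1096 in the CD137 libraries, gave depth-scaled ratios of 0.958 (0.880 to 1.04) and 0.996 (0.915 to 1.08). For Msr1 the FPKM and the reads therefore lay on opposite sides of the control, and both differences were small. The table lists 4 transcripts for this gene; what separates its reads from its FPKM was not tested.

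Acsl1 and Pnpla2, which stand at the entry to and the exit from the fatty acid stores, were higher to a like degree. Acsl1, an acyl-CoA synthetase that activates long-chain fatty acids, was at 12.3 FPKM in the control and at 17.3 and 16.1 FPKM in the CD137 libraries. The mean of 16.7 ± 0.849 FPKM (SD, n = 2) was 1.36-fold the control. Pnpla2 encodes adipose triglyceride lipase, the enzyme that takes the first fatty acid from stored triglyceride. It had 14.1 FPKM in the control against 19.0 and 18.6 FPKM in the CD137 libraries, with a mean of 18.8 ± 0.325 FPKM (SD, n = 2), 1.33-fold the control. Its reads numbered 667 in the control against 883 and 866 in the CD137 libraries, with counting intervals of the depth-scaled ratios of 1.22 to 1.49 and 1.19 to 1.46. In both genes the mean of the CD137 libraries lay above the control by several times the gap between them, 3.68 times for Acsl1 and 10.2 times for Pnpla2. A gap between 2 libraries is a poor measure of spread.

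The perilipins differed from the control by much less. Plin2, the main droplet coat protein of macrophages, was at 37.7 FPKM in the control and at 40.2 and 38.2 FPKM in the CD137 libraries. Its mean of 39.2 ± 1.39 FPKM (SD, n = 2) lay within 1.47 FPKM of the control, less than the 1.97 FPKM between the CD137 libraries, and the counting intervals of its read ratios, 0.976 to 1.14 and 0.939 to 1.10, include 1. Plin3, a perilipin that moves between cytosol and droplet, was at 21.6 FPKM in the control and at 23.2 and 23.4 FPKM in the CD137 libraries, a ratio of 1.08. Its CD137 libraries differed by only 0.16 FPKM, so the distance of their mean from the control was 10.8 times that gap, while the counting intervals of its read ratios, 0.978 to 1.18 and 0.985 to 1.19, include 1. The level of Pnpla2 relative to Plin2 was 0.375 in the control and 0.474 and 0.486 in the CD137 libraries.

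**Figure D1:**
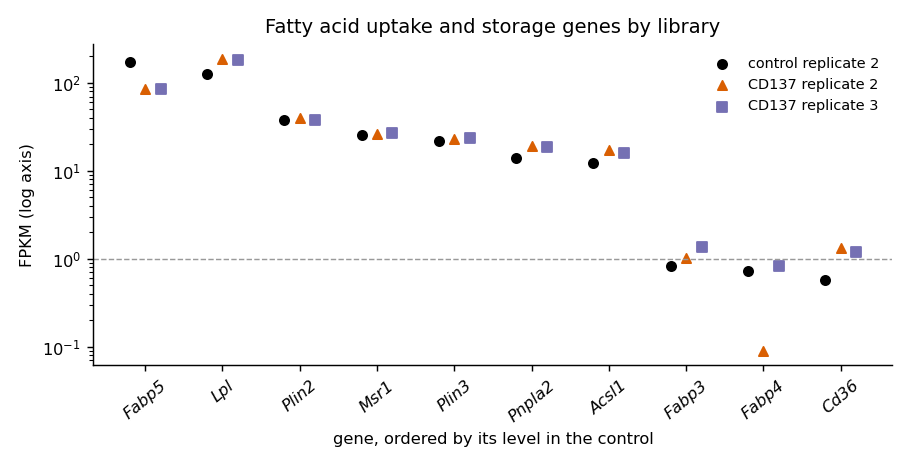
FPKM of the 10 genes in control replicate 2 (circles) and CD137 replicates 2 (triangles) and 3 (squares) on a log axis, with the dashed line at 1 FPKM. Fabp5 stands at 173 FPKM in the control and at 84.3 and 84.8 FPKM in the CD137 libraries, Lpl moves the other way, and Fabp3, Fabp4 and Cd36 lie around the line.

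Promoter windows of 300 bases, from 250 before to 50 after an annotated start, were read from RefSeq (GRCm38.p6, the same assembly as mm10) for 6 of the 10 genes; Fabp4, Fabp5, Lpl and Msr1 have no entry. The windows of Cd36, Acsl1 and Pnpla2, which had higher values in both CD137 libraries, are shown beside that of Plin2, which was near its control level. The Cd36 window is that of a start inside the gene (chr5:17835847-17836146, minus strand), and the others lie at chr8:46470787-46471086 (Acsl1, plus strand), chr7:141454938-141455237 (Pnpla2, plus strand) and chr4:86670010-86670309 (Plin2, minus strand). Capitals mark every match, on either strand, to the letters TATAAA (the TATA box), CCAAT (the CCAAT box), GGGCGG (the GC box), AGGTCA (a nuclear receptor unit), TGACTCA (the AP-1 site) or CACGTG (the E-box), and the direct repeat of the AGGTCA unit with any 1 base between was searched as well.
Cd36: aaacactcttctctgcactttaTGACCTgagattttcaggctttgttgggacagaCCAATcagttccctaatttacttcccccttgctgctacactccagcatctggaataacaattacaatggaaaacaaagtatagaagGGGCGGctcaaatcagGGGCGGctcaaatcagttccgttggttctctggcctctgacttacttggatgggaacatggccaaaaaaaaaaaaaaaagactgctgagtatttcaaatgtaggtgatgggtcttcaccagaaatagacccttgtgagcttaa
Acsl1: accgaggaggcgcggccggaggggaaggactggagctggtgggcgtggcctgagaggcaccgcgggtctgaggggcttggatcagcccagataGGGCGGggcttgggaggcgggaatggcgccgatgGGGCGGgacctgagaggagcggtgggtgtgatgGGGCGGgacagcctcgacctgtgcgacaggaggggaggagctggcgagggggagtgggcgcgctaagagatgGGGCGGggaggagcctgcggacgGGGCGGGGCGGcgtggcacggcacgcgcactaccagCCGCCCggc
Pnpla2: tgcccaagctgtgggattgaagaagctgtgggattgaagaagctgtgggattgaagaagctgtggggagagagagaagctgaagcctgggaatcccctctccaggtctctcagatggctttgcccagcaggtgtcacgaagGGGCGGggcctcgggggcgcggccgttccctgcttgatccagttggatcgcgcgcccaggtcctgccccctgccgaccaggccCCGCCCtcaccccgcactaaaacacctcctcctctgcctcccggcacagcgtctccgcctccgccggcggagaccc
Plin2: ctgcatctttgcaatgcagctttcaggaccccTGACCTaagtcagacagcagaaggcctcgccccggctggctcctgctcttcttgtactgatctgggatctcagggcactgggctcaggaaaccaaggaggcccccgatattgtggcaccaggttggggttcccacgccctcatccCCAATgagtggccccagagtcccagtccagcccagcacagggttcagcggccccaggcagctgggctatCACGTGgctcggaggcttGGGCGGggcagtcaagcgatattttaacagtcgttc

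The letters GGGCGG, the core of the GC box bound by Sp1, occur 7 times in the Acsl1 window, 2 times each in those of Pnpla2 and Cd36, 1 time in that of Plin2 and 3 times in that of Plin3; 2 of the Acsl1 matches overlap by a base. Of all 32851 windows, 35.7 percent hold these letters. AGGTCA, the single binding unit of many nuclear receptors, occurs 1 time each in the Cd36 and Plin2 windows and in 16.3 percent of all windows. The full direct repeat, the strict form of the PPAR element, whose letters contain that unit, is in none of the 7 windows of these 6 genes and in 0.0396 percent of all windows. The windows of Cd36, Plin2, Plin3 and the second Acsl1 start hold CCAAT, as do 37.4 percent of all windows. CACGTG is in the Plin2 window and in 7.15 percent of all windows. TATAAA and TGACTCA, held by 13.6 and 5.20 percent of all windows, are in none of the 7. None of the listed letters is in the Fabp3 window.

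In the CD137 libraries the order of levels was Lpl, Fabp5, Plin2, Msr1, Plin3, Pnpla2 and Acsl1, with no overlap between the libraries of neighbours, followed by Cd36 and Fabp3, whose ranges overlap, and Fabp4. The control differed from that order in the exchange of Lpl and Fabp5 and in having Cd36 last. Fabp5 stood above 96.4 percent of expressed genes in the control and above 91.6 percent in each CD137 library, and Lpl above 94.7 percent in the control and 96.8 and 96.7 percent in the CD137 libraries. Summed over the 10 genes the level was 411 FPKM in the control and 401 and 392 FPKM in the CD137 libraries. Without Fabp5 the sum was 239 FPKM in the control and 317 and 307 FPKM in the CD137 libraries. The difference of -88.0 FPKM in Fabp5 thus stood beside one of 59.3 FPKM in Lpl.

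Both CD137 libraries lay above the control for 8 of the 10 genes and below it for Fabp5, and they straddled it for Fabp4. Of the 8, Msr1 lay below the control on recovered reads, and the counting intervals of Fabp3, Plin2 and Plin3 include 1. Among all expressed genes, meaning genes that reach 1 FPKM in any library, both lay above for 49.0 percent and below for 40.2 percent. The median ratio of the 10 genes was 1.21, beside 1.02 over 10705 expressed genes above 0 in every library. The limma fit, which compares 1 control with 2 CD137 libraries on log2(FPKM + 1), called 42.6 percent of 10720 expressed genes at an adjusted p of 0.05, with 24.4 percent higher and 18.2 percent lower. That fit included 9 of the 10 genes, Cd36 and Fabp3 only through their CD137 values, and Fabp4 was under the limit. Because the genes were listed with this comparison known, no call is given for them. Of the expressed genes above 0 in every library, 55, or 0.514 percent, had a ratio as low as that of Fabp5, and 8.66 percent had one as high as that of Lpl.

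**Figure D2:**
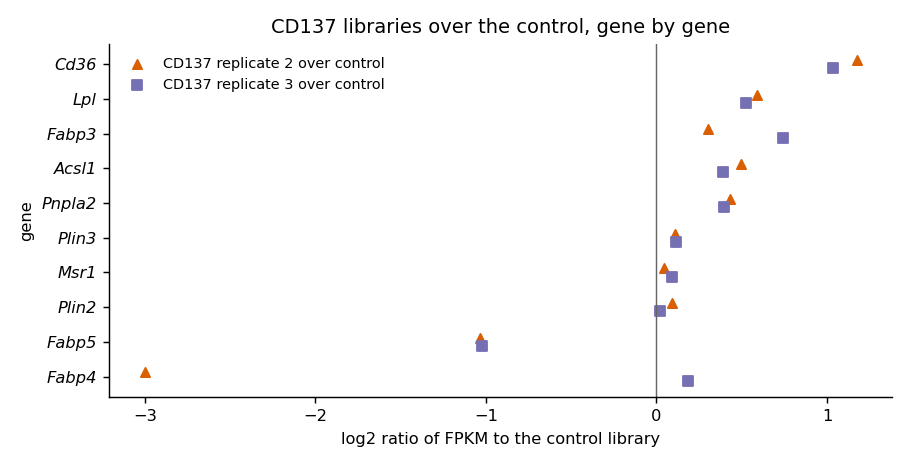
Log2 ratio of FPKM in CD137 replicate 2 (triangles) and replicate 3 (squares) to control replicate 2 for each of the 10 genes. The points of Fabp5 lie together at -1.03 and -1.02, those of Fabp4, from at most 9 reads a library, lie at -3 and 0.19, and the other 8 genes lie above 0.

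**Figure D3:**
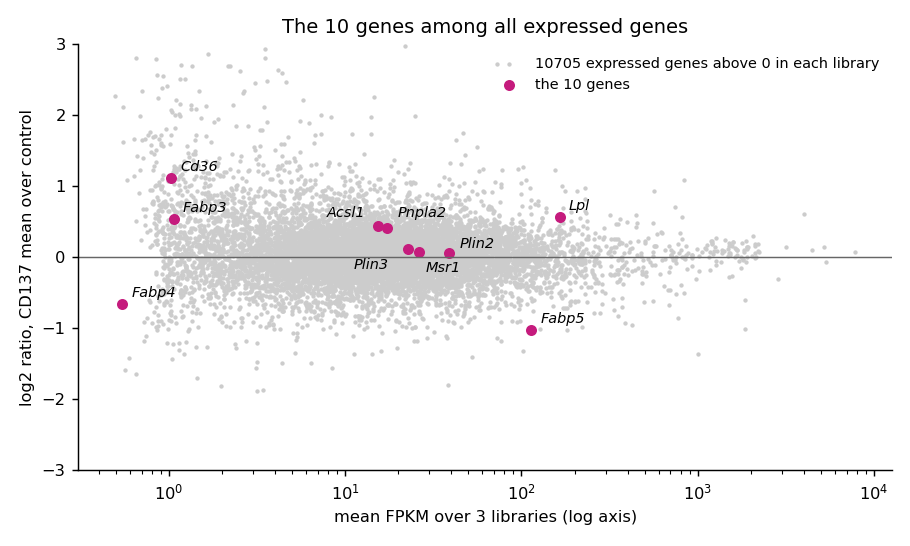
Log2 ratio of the CD137 mean to the control against mean FPKM (log axis) for 10705 expressed genes (grey) and the 10 genes (named); 8 grey genes lie beyond the plotted limit of 3. Fabp5 lies at -1.03, a value that 55 of the grey genes reach or pass, Lpl lies at 0.56, and Fabp4, which is under 1 FPKM in every library, is drawn but is no grey gene.

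To set the 10 genes in their pathway, 181 further genes of fatty acid handling were taken in 10 lists, of which 163 had a value and 115 entered the fit. Of those 115, 35 rose, 19 fell and 61 did not pass, shares of 30.4 percent higher and 16.5 percent lower beside the 24.4 and 18.2 percent of all expressed genes. Of the 115, 2 reached 1 FPKM only through a CD137 library, of which 1 rose (Lipc) and 1 did not pass (Mogat1), and 1 only through the control (Dgat2, not past); these 3 are named because of the limit. The median log2 fold change of the 115 was 0.09, beside 0.03 over all fitted genes. The words rose and fell are used for an adjusted p under 0.05 in the limma fit of expressed genes. Each list below is short, and its counts are to be read beside the shares of all expressed genes. In the limma fit of all 16003 genes with a value no gene passed, with 5281 at an unadjusted p under 0.05, whereas limma-voom on the recovered reads of 8682 expressed genes called 3792, or 43.7 percent, with 24.0 percent higher and 19.7 percent lower. These fits take their spread from the pair of CD137 libraries and assume that the control varies as they do.

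At the cell surface, 2 of 8 fitted transporters and scavenger receptors rose and 3 fell. Colec12, a scavenger receptor of the collectin family, fell from 72.7 FPKM to 38.7 and 38.4 FPKM (ratio 0.531, limma adjusted p = 0.00081). Scarb1, which takes up cholesteryl ester from high-density lipoprotein, fell to 0.684 and Cd68 to 0.869 of the control, and the lysosomal Scarb2 rose 1.19-fold. Among lipoprotein receptors and partners of Lpl, 4 of 13 rose and 4 fell. The 4 that rose include Lipc, at 0.72 FPKM in the control against 1.51 and 1.49 FPKM, which entered the fit only through the group where it is high and had to be higher there to be counted. The receptor Lrp1 fell to 0.760 of the control, while Sel1l, which serves the maturation of lipoprotein lipase, rose 1.40-fold beside the 1.47-fold ratio of Lpl. The lipase maturation factors Lmf1 and Lmf2, named after their values were seen, neither rose nor fell, at 1.15 and 0.949 of the control. Sort1 rose 1.32-fold and Sdc4 1.11-fold.

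The list of acyl-CoA synthetases, thioesterases and binding proteins had the most higher calls, none of them in an Acsl gene. Acsl5 had 83.9 FPKM in the control against 63.5 and 62.4 FPKM in the CD137 libraries, 0.751 of the control. Acsl3 stood at 0.960 and Acsl4 at 1.08 of the control. These Acsl genes were named after their values were seen. Of 16 fitted acyl-CoA synthetases, thioesterases and binding proteins 8 rose and 2 fell, with a median log2 fold change of 0.17. The largest of the named changes were in Them4 and Acot2, both thioesterases, at 2.42-fold and 2.12-fold (Acot2 has a near-identical copy, Acot1, that could share its reads), and in the synthetase Acsbg1 at 2.14-fold. Dbi, the acyl-CoA binding protein, fell from 132 FPKM to 77.1 and 82.8 FPKM (ratio 0.604, limma adjusted p = 0.0015). Like Fabp5 it is an abundant cytosolic carrier, of the activated rather than the free acid. In triglyceride and steryl ester synthesis 6 of 18 rose and 3 fell. The cholesterol esterifying enzymes moved apart, with Soat2 at 1.55-fold and the more abundant Soat1 down from 113 FPKM to 88.2 and 93.1 FPKM. Of the droplet assembly genes, Bscl2 and Tmem159 rose 1.37-fold and 1.41-fold. Fitm2, named after its values were seen, stood at 0.996 of the control.

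Beside Plin2 and Plin3, 2 of 7 fitted droplet coat genes rose, Aup1 and Rab18, each 1.28-fold, and none fell. With 7 genes these counts cannot be set apart from the 24.4 percent higher and 18.2 percent lower of all expressed genes. Hilpda, a droplet protein that inhibits the lipase of Pnpla2, did not pass (0.889 of the control, limma adjusted p = 0.092). Of 15 lipolysis genes 6 rose and 2 fell. Abhd5, the coactivator of the lipase of Pnpla2, rose 1.36-fold, beside 1.33-fold for Pnpla2 itself, and Nceh1, a cholesteryl ester hydrolase, rose 1.41-fold. Lipe, the hormone-sensitive lipase, fell to 0.694 and Lipa, the lysosomal acid lipase, to 0.847 of the control. G0s2, an inhibitor of the lipase of Pnpla2, was named after its values were seen. It had 0.41 FPKM in the control against 0.07 FPKM in each CD137 library, under the limit of the fit.

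In fatty acid oxidation 5 of 22 rose and 3 fell, with Eci1 at 1.38-fold, Eci2 at 1.33-fold and Echs1 at 1.22-fold above and Acat1 at 0.794 of the control. Among lipid-sensing nuclear receptors and partners 1 of 12 rose (Ncoa1, 1.23-fold) and 1 fell (Cebpa, 0.687). Ppard, the PPAR expressed here, had 18.7 FPKM in the control against 16.7 and 16.4 FPKM in the CD137 libraries and did not pass (limma adjusted p = 0.058), and Pparg, named after its values were seen, was at 0.03, 0.10 and 0.03 FPKM. Of 7 other known PPAR targets 1 rose (Klf10, 1.30-fold) and 3 fell: Ucp2 to 0.778, Cpt1a to 0.728 and Angptl4, an inhibitor of lipoprotein lipase, to 0.680 of the control. The lists overlap: Cpt1a is also counted as fallen in fatty acid oxidation, and Angptl4 among the partners of Lpl.

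**Figure D4:**
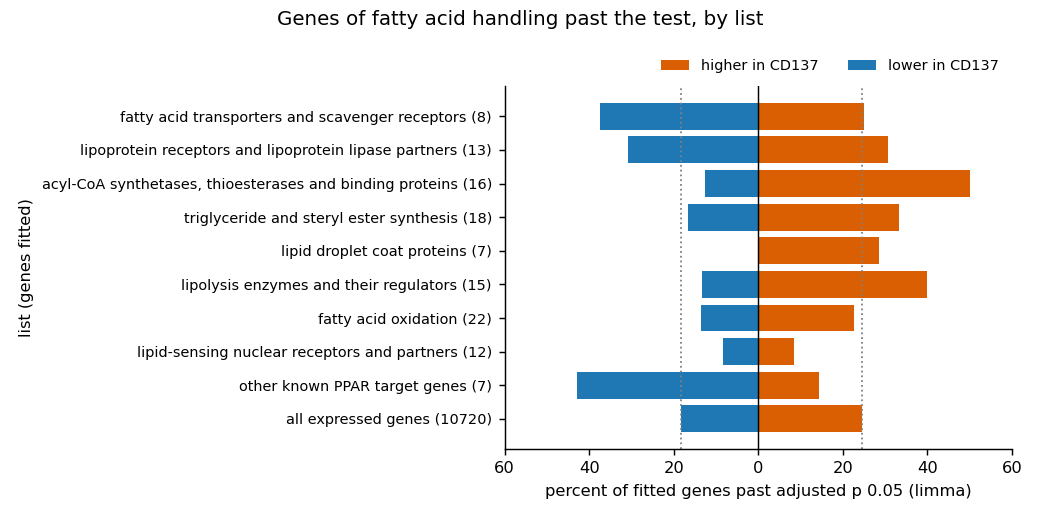
Percent of the fitted genes of each list that rose (orange, to the right) or fell (blue, to the left) at a limma adjusted p of 0.05, with dotted lines at the 24.4 and 18.2 percent of all expressed genes. Acyl-CoA genes have 8 of 16 higher. Droplet coat genes have 2 of 7 higher and none lower, too few to set apart from the dotted lines.

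Around Fabp5 on chromosome 3, 13 genes start within 1 Mb of its start, of which 5 entered the fit, Fabp5 included. Pag1, Impa1 and Snx16 fell to 0.780, 0.849 and 0.744 of the control and Zfand1 rose 1.44-fold, all nearer to the control on the log2 scale than Fabp5 was. Fabp4, Fabp12, Zbtb10, Zfp704, Slc10a5 and Chmp4c were under the limit, and Pmp2 and Fabp9 had no value. Over the 2 log2 ratios to the control, the genes nearest to Fabp5 among 6637 with at least 10 FPKM in the control were Hmgn2 (0.491 of the control), Angptl2 (0.495), Cyp51 (0.488), Fzd7 (0.498) and Ddit4 (0.480), at Euclidean distances of 0.017 to 0.048 log2 units. Both ratios share the control library, so this likeness is a description of 3 libraries. The limit of 10 FPKM was set on the control alone, and Angptl2 and Fzd7 were under it in both CD137 libraries.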

How the data were processed

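Messenger RNA selected on oligo-dT beads was sequenced, per the labels' protocols. The deposited table gives FPKM per gene and library with ratios, p-values and scores of library pairs by the authors; the submitters' processing notes name HISAT2, Bowtie2, RSEM and mm10, with neither role nor version. The authors' p-values served only to solve whole reads. With the FPKM and transcript lengths they gave unique reads for 86.1 percent of 16003 genes with a value, a step tested on simulated data. The authors' log2 ratios were only compared with the deposited FPKM. No per-sample column was left unused (0). The deposited table has 21991 lines, 1 of them broken and left out.

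The 10720 genes that reach 1 FPKM in any library were fitted as log2(FPKM + 1) with limma 3.58.1 in R 4.3.3 (trend, Benjamini-Hochberg, 1 residual degree of freedom), after a test on simulated data. Read ratios have exact 95% Clopper-Pearson intervals. Near-identical copies were sought with blastn 2.17.0. Beyond the 10 genes, those named are, per list, the 4 with the smallest p and the most abundant, the 5 nearest to Fabp5, and those within 1 Mb of it. The values of 1 gene that this rule names are not reported here. The genes and lists were chosen with earlier results of these data known. Further genes were named after their values were seen, as the text says where it does so.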

Additional observations from a re-analysis of the deposited data

How the results depend on the processing

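When all 16003 genes with a value were fitted, limma called 0 genes higher and 0 lower, and 0 and 0 of the pathway genes, against 2614, 1949, 35 and 19 in the fit of expressed genes; 5281 genes had an unadjusted p under 0.05. The other settings kept these counts within 1.5 times. The log2 ratio of Fabp5, -1.03, was -1.06 on median-scaled FPKM, -1.02 relative to abundant genes, -1.02 on the log2(FPKM + 1) scale and -1.03 to -1.02 with either CD137 library left out. The 10 genes had a median log2 ratio of 0.26, which became 0.18 with 1 added to each FPKM and 0.20 to 0.29 with a CD137 library left out. On recovered reads, an alternative chosen after seeing the data, the median was 0.082 over only 8 of the genes. Lpl and Acsl1, at FPKM log2 ratios of 0.56 and 0.44, have no recovered reads. The medians of 0.082 and 0.26 therefore cover different sets of genes. Msr1 reversed on recovered reads, from 0.067 to -0.034; the cause was not tested. Fabp4 was at -3 without CD137 replicate 3, against -0.66 with it. Leaving out a CD137 library leaves no residual degrees of freedom, so it gave no count of calls, and the single control cannot be left out. No paired analysis was possible because the control and CD137 libraries share only replicate number 2. Depth limits Fabp3 and Fabp4, with at most 15 reads in a library.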
